A study of Mus musculus with 6 samples.

Results

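The contractile genes of myoepithelial cells were followed in epithelial cells of the mouse submandibular gland, a salivary gland. The 10 genes were taken by symbol: Acta2, Actg2, Cnn1, Myh11, Mylk, Tagln, Myl9, Lmod1, Des and Cald1. All 10 were found among the 23366 gene symbols measured, and all 10 were among the 11268 genes that reached 1 TPM in at least 3 libraries and were tested. TPM, the unit of the values, is corrected for gene length and scaled to 1000000 per library, so levels of different genes can be set side by side. RNA-seq libraries came from 3 p63 knockout and 3 wild-type mouse samples, all from adults aged 12 weeks. The labels do not give the p63 allele, any Cre driver, the strain, or whether glands were pooled. The transcription factor p63, the product of Trp63, marks basal cells of epithelia, and the study asked what it does for salivary progenitor cells.

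Myoepithelial cells are epithelial cells that wrap the acini and small ducts of the gland and squeeze saliva out of them. They carry the contractile apparatus of smooth muscle together with basal keratins. Contraction starts when myosin light chain kinase phosphorylates the regulatory light chain of myosin, which then pulls on actin filaments, while calponin, caldesmon and transgelin bind the actin. Many of these genes are switched on by serum response factor, which works with coactivators of the myocardin family at a DNA element called the CArG box. Vascular smooth muscle and pericytes share most of the genes, so their RNA cannot be assigned to 1 cell type in bulk samples. Fewer cells of a type and less RNA per cell cannot be told apart either.

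Promoters are shown for 3 members, because the CArG box is the element through which serum response factor acts on contractile genes. Each window holds the 250 bases before the transcription start in RefSeq's GRCm38.p6 table, a later build than the mm9 of the deposited values. Capitals mark CArG boxes, either the consensus or a box with 1 G or C in its centre. The Acta2 window lies at chr19:34255374-34255623 on the minus strand, that of Myl9 at chr2:156775214-156775463 on the plus strand, and that of Cnn1 at chr9:22099003-22099252 on the plus strand.
Acta2: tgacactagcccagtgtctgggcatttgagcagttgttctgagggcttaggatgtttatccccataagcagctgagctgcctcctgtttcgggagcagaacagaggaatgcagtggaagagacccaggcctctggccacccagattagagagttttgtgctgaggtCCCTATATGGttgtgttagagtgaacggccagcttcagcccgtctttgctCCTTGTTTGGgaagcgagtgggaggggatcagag
Myl9: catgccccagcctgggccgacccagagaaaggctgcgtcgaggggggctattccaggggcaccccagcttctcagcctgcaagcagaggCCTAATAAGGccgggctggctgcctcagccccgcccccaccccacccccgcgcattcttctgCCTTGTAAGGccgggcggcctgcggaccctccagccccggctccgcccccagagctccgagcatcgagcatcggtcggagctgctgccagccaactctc
Cnn1: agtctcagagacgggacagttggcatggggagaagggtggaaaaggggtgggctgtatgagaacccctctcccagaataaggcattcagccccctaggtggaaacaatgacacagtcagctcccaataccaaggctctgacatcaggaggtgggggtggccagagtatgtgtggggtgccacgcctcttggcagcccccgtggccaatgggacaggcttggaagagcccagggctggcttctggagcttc

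The Acta2 window held the box CCCTATATGG, starting 84 bases before the transcription start, and CCTTGTTTGG, starting 34 bases before it. The Myl9 window held the consensus box CCTAATAAGG at 161 bases and CCTTGTAAGG at 99 bases before the start. Cnn1, the only member whose fall passed the test, had no such box in this window. Of 32544 distinct promoter windows, 8.59% held a box of either kind and 0.661% held at least 2. Among the 7 members with an entry in the table, Acta2 and Myl9 had boxes, and Cnn1, Mylk, Lmod1, Des and Cald1 had none in these windows. Actg2, Myh11 and Tagln were not matched. The MCAT element, CATTCC on either strand, to which TEAD factors bind, occurred in the windows of Acta2, Mylk, Lmod1 and Cald1 (4 of 7 members) and in 12.6% of all windows. The half-site bound by the p53 family, p63 included, occurred for Cald1 (1 of 7 members) and in 7.13% of all windows. Members were counted by gene, over all windows of a gene, and the percentages by window. Cald1 had 2 windows, and its half-site and MCAT element both lay in window 1 only. These matches describe letters in the windows, not binding.

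Trp63, the targeted gene, gave 1.59, 0.816 and 1.76 TPM in knockout libraries 1, 2 and 3, against 3.48, 1.85 and 3.68 TPM in wild-type libraries 1, 2 and 3. The groups did not overlap, but the gene did not pass (log2 fold change -0.74, limma adjusted p = 0.27). Against the epithelial label, Epcam, an adhesion protein of epithelial cells, was present in all 6 libraries at 128 to 200.2 TPM in knockout cells and 172 to 232 TPM in wild-type cells. Dcn, the decorin gene of fibroblasts, stood at a like level, with 107 to 213 TPM in knockout cells and 176 to 223 TPM in wild-type cells, so the libraries also held RNA of connective tissue markers. The labels do not say which exons were deleted, so TPM over the whole gene is a weak check of the genotype. Knockout library 3 stood apart from the others, with 10634 genes at 1 TPM where the others had 11129 to 11235. In it the median gene tested lay 0.29 below the wild-type mean on the log2 scale, while in knockout libraries 1 and 2 it lay 0.27 and 0.24 above. The 50 most abundant genes of a library held 80.3% of the TPM in knockout library 3. Their share was 69.2% and 71.0% in knockout libraries 1 and 2, and 73.3% to 75.9% in wild-type libraries. TPM has a fixed total, so all other genes of knockout library 3 shared a smaller part of it.

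The knockout libraries held less RNA of most contractile genes. Summed over the 10 members, it came to 398, 254 and 303 TPM in knockout libraries 1, 2 and 3, against 715, 642 and 669 TPM in wild-type libraries 1, 2 and 3. The knockout mean was 318 ± 73.2 TPM and the wild-type mean 675 ± 37.1 TPM (SD, n = 3 each). All 10 genes had a negative log2 fold change (9 of 10 under quantile normalization, where Des was positive). Of all 11268 genes tested, 4804 were negative and 6464 positive, and the sign counts of the lists below stand beside that share. In 7 of the 10 every knockout library lay below every wild-type library. Such a separation downwards was found for 15.6% of all genes tested. With limma and a threshold of 0.05 on the adjusted p, only Cnn1 passed (1 of 10), where 0.319% of all genes tested passed as lower in the knockout. No member passed as higher in limma's test, where 0.071% of all genes did, and none was higher at an unadjusted p of 0.05. At that unadjusted level 7 members were lower, against 10.5% of all genes lower and 4.99% higher. The median log2 fold change was -1.05 over the members and 0.09 over all genes tested. Fold changes here are on the scale of log2(TPM + 1), which understates the change of low genes such as Des and Actg2.

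**Figure D1:**
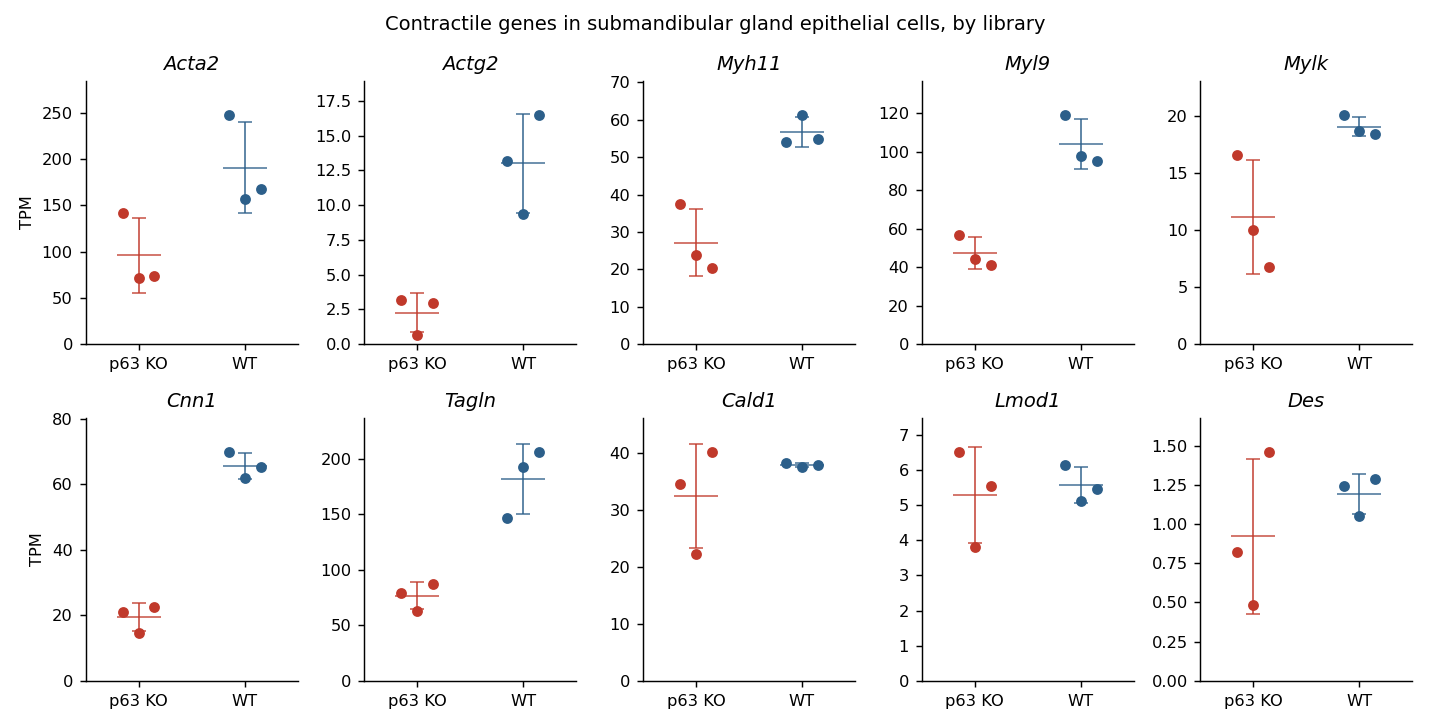
TPM (vertical axes, each from 0) of the 10 contractile genes in each library, with p63 knockout libraries 1 to 3 at the left and wild-type libraries 1 to 3 at the right of each panel. Points are libraries, and horizontal lines and bars are means and SD. Knockout and wild type do not overlap for Acta2, Actg2, Myh11, Myl9, Mylk, Cnn1 and Tagln, and overlap for Cald1, Lmod1 and Des.

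Actin forms the thin filament on which myosin pulls. Acta2, the smooth muscle alpha-actin that serves as the usual marker of myoepithelial cells, measured 142, 71.1 and 74.0 TPM in knockout libraries 1, 2 and 3. It measured 247, 156 and 168 TPM in wild-type libraries 1, 2 and 3. The groups stood apart, but narrowly, since knockout library 1 came close to wild-type library 2. The means were 95.7 ± 40.1 and 190.4 ± 49.3 TPM in knockout and wild type (SD, n = 3 each), a log2 fold change of -1.03 (SE 0.32) that did not pass limma's test (adjusted p = 0.20). Actg2, the gamma-actin of visceral smooth muscle, was far lower in level. It gave 3.17, 0.688 and 2.98 TPM in knockout libraries 1, 2 and 3, against 13.2, 9.35 and 16.5 TPM in wild-type libraries 1, 2 and 3. The groups were wide apart, at a knockout mean of 17.5% of the wild-type mean. The log2 fold change was -2.17 (SE 0.40), and it missed the threshold of limma's test (adjusted p = 0.066).

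Myosin and the kinase that activates it had negative values too, and none of these 3 genes passed. Myh11, the smooth muscle myosin heavy chain, measured 37.3, 23.9 and 20.3 TPM in knockout libraries 1, 2 and 3, against 53.9, 61.2 and 54.9 TPM in wild-type libraries 1, 2 and 3. The log2 fold change was -1.08 (SE 0.26, limma adjusted p = 0.11). Myl9, the regulatory light chain whose phosphorylation starts contraction, gave 56.8, 44.1 and 41.2 TPM in knockout cells and 119, 97.9 and 95.3 TPM in wild-type cells. All 3 knockout values lay well below the lowest wild-type value (log2 fold change -1.12, SE 0.21, limma adjusted p = 0.068). Mylk, the light chain kinase, gave 16.6, 10.1 and 6.76 TPM in knockout cells and 20.1, 18.7 and 18.5 TPM in wild-type cells. Its wild-type values were nearly equal while the knockout values were widely spread, with library 1 close to wild type and library 3 lowest (log2 fold change -0.81, SE 0.31, limma adjusted p = 0.29).

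The actin-binding proteins split. Cnn1, basic calponin, which binds actin and restrains the myosin motor, fell to 21.2, 14.6 and 22.6 TPM in knockout libraries 1, 2 and 3, against 69.8, 61.8 and 65.4 TPM in wild-type libraries 1, 2 and 3. Both groups were tight and far apart, with a knockout mean of 29.6% of the wild-type mean. The log2 fold change was -1.73 (SE 0.22), and it passed limma's test (adjusted p = 0.035). Tagln, transgelin or SM22-alpha, a small actin-bundling relative of calponin, measured 79.1, 63.3 and 87.7 TPM in knockout cells and 146, 193 and 206 TPM in wild-type cells. It stood apart in every library but missed the threshold (log2 fold change -1.23, SE 0.22, limma adjusted p = 0.065). An antisense gene annotated in GENCODE M21, Gm48529, covers 62.4% of the exon bases of Tagln, and the strand setting of the counting was not given, so the Tagln value is uncertain in that respect. Smaller antisense overlaps, each between 1.99% and 5.86% of the exon bases, were annotated for Tagln (with Pcsk7), Mylk and Des.

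Cald1, Lmod1 and Des overlapped between the groups. Cald1, caldesmon, which many non-muscle cells also express, measured 34.7, 22.4 and 40.2 TPM in knockout libraries 1, 2 and 3, and 38.3, 37.6 and 37.9 TPM in wild-type libraries 1, 2 and 3. Knockout library 2 was low, library 1 slightly low and library 3 above all wild-type libraries (log2 fold change -0.26, SE 0.25, limma adjusted p = 0.58). Lmod1, leiomodin, which starts new actin filaments in smooth muscle, measured 6.50, 3.81 and 5.53 TPM in knockout cells and 6.14, 5.11 and 5.45 TPM in wild-type cells. The knockout values lay on both sides of the wild-type values (log2 fold change -0.09, SE 0.24, limma adjusted p = 0.86). Without knockout library 2 the log2 fold change of Lmod1 was 0.09 (adjusted p = 0.91). Des, desmin, the intermediate filament of muscle, was near the filter at 0.823, 0.485 and 1.46 TPM in knockout cells and 1.24, 1.05 and 1.29 TPM in wild-type cells (log2 fold change -0.22, SE 0.22, limma adjusted p = 0.60). Its sign turned to 0.03 under quantile normalization (adjusted p = 0.95). Knockout library 3, the highest for Des, also held the most RNA of 20 skeletal muscle markers.

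**Figure D2:**
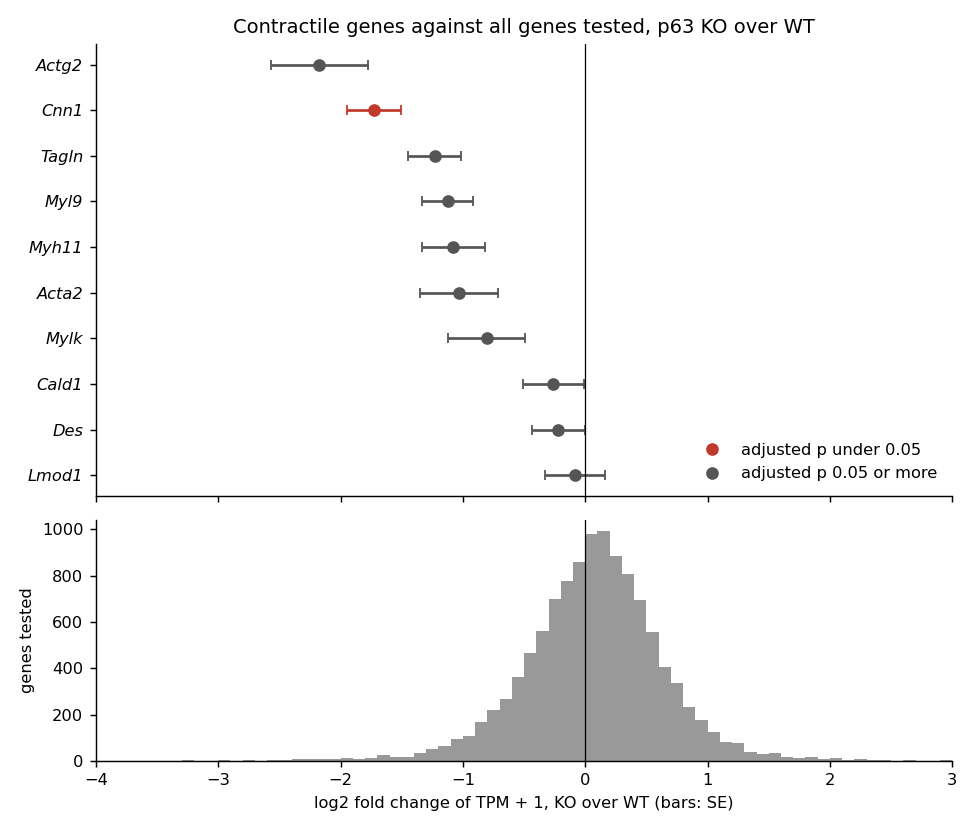
Log2 fold change of TPM + 1, knockout over wild type (horizontal axis), of the 10 contractile genes with their SE (upper panel) and the same quantity for the 11268 genes tested as a histogram (lower panel). The members run from -2.17 for Actg2 to -0.09 for Lmod1, and only Cnn1, in red, passed limma's test. The axis ends at -4 and 3, and a few genes lie outside it.

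The calls depended on single libraries. Without knockout library 3, which stood apart, 5 members passed as lower (Myh11, Myl9, Actg2, Cnn1 and Tagln), but so did 11.7% of all genes tested. With array weights, which give less weight to a library that departs from its group, 7 passed, against 11.9% of all genes. Without any 1 of the other 5 libraries 0 members passed limma's test, although 5 to 7 were lower at an unadjusted p of 0.05. In those 5 fits few genes passed at all, with 0 to 13 of all 11268 genes tested passing as lower. At an unadjusted p of 0.05 in limma's test, 879 to 1272 of all genes were called there in either direction. Over 17 alternative settings the call of Cnn1 was kept in 8 and lost in 9 (adjusted p 0.00036 to 0.23), with its log2 fold change between -1.90 and -1.54. The log2 fold change was negative in all 17 settings for Acta2, Actg2, Cnn1, Myh11, Mylk, Tagln, Myl9 and Cald1. Cald1 passed in 0 of 17 by limma, with a lowest adjusted p of 0.050.

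In wild-type libraries the order of mean levels in TPM was Acta2, Tagln, Myl9, Cnn1, Myh11, Cald1, Mylk, Actg2, Lmod1 and Des. The ranges of Acta2 and Tagln overlapped, and those of all other neighbours in this order did not. In knockout libraries Acta2 stayed ahead, at 95.7 ± 40.1 TPM, but Cnn1 stood behind Cald1 and Myh11. Cnn1 ranked 6 of 10 in the knockout and 4 of 10 in wild type, and Cald1 ranked 4 in the knockout and 6 in wild type. Actg2, at 2.28 ± 1.38 TPM in the knockout, also ranked below Lmod1, at 5.28 ± 1.36 TPM, whereas in wild type Actg2 was at 13.0 ± 3.56 TPM and Lmod1 at 5.57 ± 0.525 TPM (SD, n = 3 each). In the knockout the ranges of neighbours overlapped for Acta2 with Tagln, Cald1 with Myh11, Myh11 with Cnn1, Cnn1 with Mylk, and Actg2 with Des.

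Setting a smooth muscle type gene against its relatives in the same library removes the scaling between libraries. This measure was chosen after the values had been seen. Cnn1 made up 24.1%, 15.3% and 27.5% of the summed TPM of the 3 calponin genes in knockout libraries 1, 2 and 3. In wild-type libraries 1, 2 and 3 it made up 55.1%, 53.7% and 56.8%. The wild-type libraries thus lay within a few points of each other, and all knockout libraries were far below them. Of the relatives, Cnn2 averaged 7.15 ± 1.09 TPM in knockout cells and 13.2 ± 1.41 TPM in wild-type cells, whereas Cnn3 averaged 61.9 ± 10.8 TPM in knockout cells and 40.1 ± 2.17 TPM in wild-type cells (SD, n = 3 each). Neither passed limma's test (adjusted p = 0.14 for Cnn2 and 0.23 for Cnn3).

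Myh11 made up 43.2%, 32.0% and 43.2% of the TPM of 4 myosin heavy chain genes (Myh11, Myh9, Myh10 and Myh14) in knockout libraries 1, 2 and 3, and 62.9%, 61.9% and 62.7% in wild-type libraries 1, 2 and 3. The groups were again apart, with hardly any spread in wild type. Myh9, the main non-muscle heavy chain, averaged 34.9 ± 13.2 TPM in knockout cells and 24.3 ± 2.62 TPM in wild-type cells (SD, n = 3 each, limma adjusted p = 0.49). Myl9 made up 26.9%, 28.1% and 33.2% of 3 regulatory light chain genes in the knockout and 39.6%, 42.9% and 39.6% in wild type. Here too every knockout library lay below every wild-type library.

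For the actins the picture was mixed. Acta2 made up 28.4%, 21.1% and 17.8% of the TPM of 6 actin genes in knockout libraries 1, 2 and 3, and 25.7%, 26.0% and 26.0% in wild-type libraries 1, 2 and 3. The groups overlapped, and knockout library 1 had the highest share of all. The actins of non-muscle cells had lower means in the knockout and did not pass: Actb averaged 90.3 ± 27.5 TPM in knockout cells and 179 ± 55.7 TPM in wild-type cells, and Actg1 228 ± 20.1 TPM in knockout cells and 351 ± 91.7 TPM in wild-type cells (SD, n = 3 each, limma adjusted p = 0.21 and 0.28). Actg2 made up 0.634%, 0.204% and 0.715% of the actins in the knockout and 1.37%, 1.55% and 2.55% in wild type, with no overlap. Tagln made up 55.9%, 49.95% and 45.0% of 3 transgelin genes in the knockout and 50.3%, 62.5% and 67.3% in wild type, with overlap through wild-type library 1.

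Exact two-sided permutation tests of the 6 shares gave p = 0.1 for Cnn1, Myh11, Myl9 and Actg2, the smallest value that 3 libraries against 3 allow, and 0.15 after Benjamini-Hochberg adjustment over the 6. For Tagln the exact p was 0.2 (adjusted 0.24) and for Acta2 0.4 (adjusted 0.4). The differences, knockout minus wild type, were -32.9 percentage points for Cnn1, -23.0 for Myh11, -11.3 for Myl9, -9.74 for Tagln, -3.47 for Acta2 and -1.31 for Actg2. Without knockout library 1 the difference of Acta2 was -6.47 and without knockout library 3 it was -1.14. That of Tagln was -6.11 without wild-type library 3 and -14.6 without wild-type library 1. Relatives share little sequence: of all 50-base stretches of GENCODE M21 transcripts, 0.391% of those of Myh11 also occurred in Myh9, 0.24% in Myh10, 0.326% of those of Acta2 in Actg1, and 0 of those of Cnn1, Actg2, Tagln and Myl9 in any relative counted here.

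**Figure D3:**
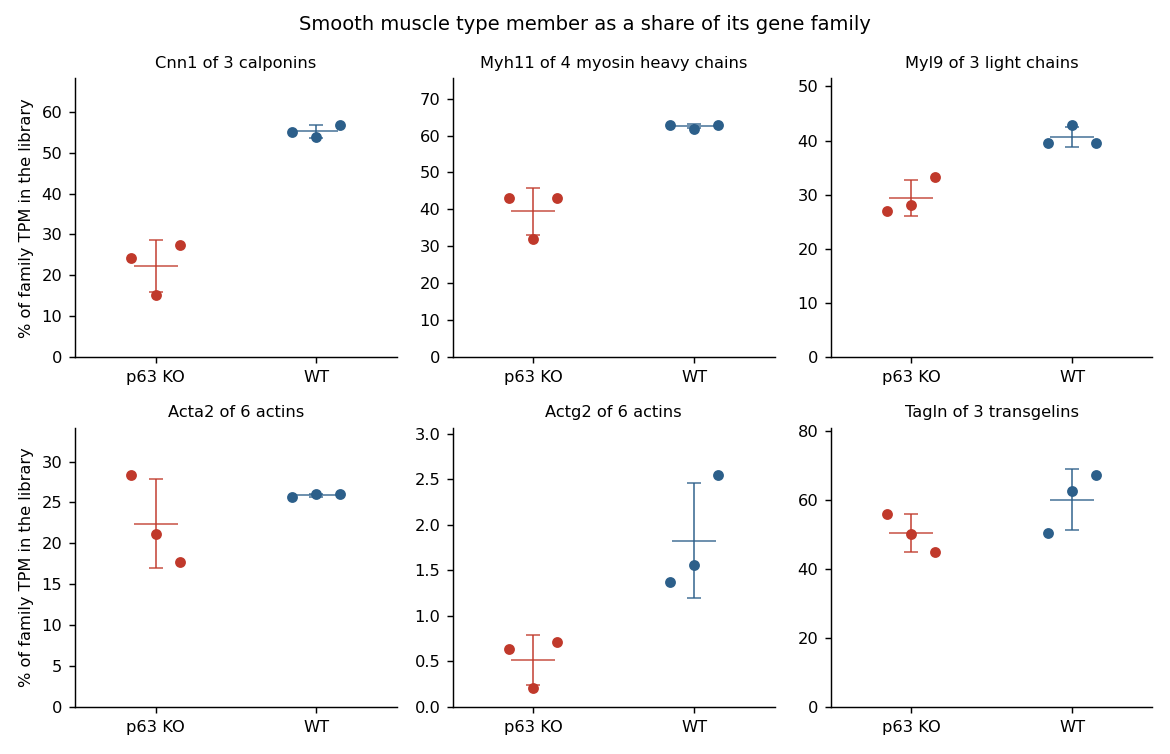
TPM of 1 smooth muscle type gene as a percent of the summed TPM of its gene family in the same library (vertical axes, from 0), for knockout libraries 1 to 3 at the left and wild-type libraries 1 to 3 at the right. Points are libraries, and lines and bars are means and SD. The shares of Cnn1, Myh11, Myl9 and Actg2 do not overlap between the groups, and those of Acta2 and Tagln do.

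Other genes of the contractile pathway were described in lists and in the same fit, and 0 of them passed limma's test over all genes in either direction. Of 19 tested actin-binding and cytoskeletal partners, 15 had negative log2 fold changes, with a median of -0.55 (8 lower and 2 higher at an unadjusted p of 0.05, where 10.5% of all genes tested were lower and 4.99% higher). For 8 of the 19 all knockout libraries lay below all wild-type libraries and for 2 above, where 15.6% of all genes tested lay below and 5.42% above. Pdlim7 changed sign under all 3 other scalings and Csrp1 under quantile normalization. The largest were Synm, an intermediate filament protein of muscle (-0.88, limma adjusted p = 0.14), the actin crosslinker Flna (-0.85, adjusted p = 0.14), Cnn2 (-0.81, adjusted p = 0.14) and, in the other direction, the alpha-actinin gene Actn1 (1.21, adjusted p = 0.15). Actn1 measured 32.4, 37.5 and 15.6 TPM in knockout libraries 1, 2 and 3 and 10.9, 9.66 and 12.5 TPM in wild-type libraries 1, 2 and 3. Of 9 tested actin, myosin and tropomyosin genes of all cells, 6 were negative, and 8 under the 3 other scalings tried, where the tropomyosin genes Tpm3 and Tpm4 changed sign (median -0.42, 3 lower at an unadjusted p of 0.05). Among them were Actb (-0.98, adjusted p = 0.21), the essential light chain gene Myl6 (-0.76, adjusted p = 0.098), Actg1 (-0.59, adjusted p = 0.28) and Myl12a (-0.48, adjusted p = 0.45).

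Of 16 tested regulators of contraction, 11 were negative, with a median of -0.18 (4 lower at an unadjusted p of 0.05, of which Kcnmb1 reached 1 TPM only in wild type and so entered the test through the group where it is high). The count was 12 under quantile normalization, where Itpr1 changed sign. Ppp1r14a, the inhibitor CPI-17 that keeps the light chain phosphorylated, measured 2.85, 1.83 and 0.590 TPM in knockout libraries 1, 2 and 3, against 8.73, 5.14 and 6.74 TPM in wild-type libraries 1, 2 and 3. The groups were apart, yet the gene missed the threshold (log2 fold change -1.58, SE 0.36, limma adjusted p = 0.098). It passed when values were rescaled without the 50 most abundant genes. The calmodulin gene Calm3 had a negative value (-0.70, adjusted p = 0.23), and the potassium channel gene Kcnma1 a positive one (1.12, adjusted p = 0.32). Kcnma1 was high in knockout libraries 1 and 2, at 27.4 and 23.6 TPM, and at 6.64 TPM in library 3, against 6.39 to 8.48 TPM in wild type. Of 11 receptors that start contraction 3 were tested, the muscarinic receptor gene Chrm3 (0.44, adjusted p = 0.44), the endothelin receptor gene Ednrb (0.12, adjusted p = 0.85) and the adrenergic receptor gene Adra1a (-0.06, adjusted p = 0.91). Oxtr, the oxytocin receptor of mammary myoepithelial cells, stayed at or below 0.107 TPM in knockout cells and 0.508 TPM in wild-type cells.

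Serum response factor and its partners, the regulators of contractile genes, had values in both directions. Of the 9 tested genes of this list, 7 had positive log2 fold changes, with a median of 0.22, and 0 passed limma's test (2 higher at an unadjusted p of 0.05, where 4.99% of all genes were). Over all 11268 genes tested 6464 were positive. Srf measured 9.97, 8.61 and 4.63 TPM in knockout libraries 1, 2 and 3 and 6.74, 6.99 and 6.12 TPM in wild-type libraries 1, 2 and 3 (0.14, adjusted p = 0.80), and its sign turned under quantile normalization. Knockout libraries 1 and 2 lay above wild type and library 3 below, a pattern shared by the coactivator genes Mkl1 (-0.01, adjusted p = 0.99) and Mkl2 (0.22, adjusted p = 0.73). The median gene tested had this pattern too, at 0.27, 0.24 and -0.29 on the log2 scale in knockout libraries 1, 2 and 3. The pattern is therefore not particular to these genes. Myocd, the myocardin gene of smooth muscle, was at or below 0.0247 TPM in knockout cells and 0.0226 TPM in wild-type cells, and Gata6 was below the filter as well. Tead1 (0.60, adjusted p = 0.39), Foxo4 (0.68, adjusted p = 0.43), Elk1 (0.16, adjusted p = 0.75) and Elk4 (1.08, adjusted p = 0.29) were positive, and Elk3 was negative (-0.56, adjusted p = 0.40). Klf4, a factor that represses smooth muscle genes, measured 8.59, 4.84 and 3.30 TPM in knockout cells and 2.40, 2.199 and 2.09 TPM in wild-type cells (0.95, SE 0.31, limma adjusted p = 0.23). Its groups did not overlap.

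**Figure D4:**
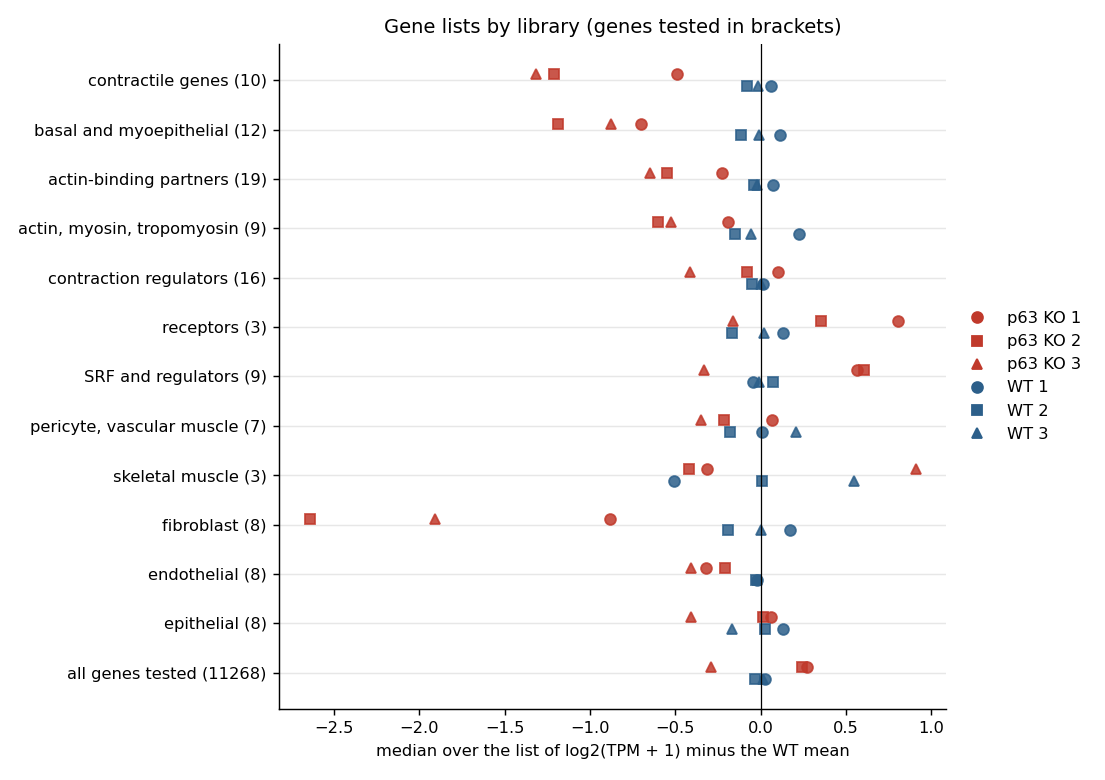
Median over each gene list of log2(TPM + 1) minus the wild-type mean (horizontal axis), by library, with the number of genes tested in brackets. Red marks are knockout libraries 1 to 3 and blue marks wild-type libraries 1 to 3, with 1 symbol for each library number. The contractile genes lie at -0.49, -1.21 and -1.31 in knockout libraries 1, 2 and 3 and within 0.1 of 0 in wild type, while the serum response factor list lies on both sides of 0 in the knockout. The median of all genes tested also lies on both sides of 0 there.

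Markers of the cell types that could carry the contractile RNA had the following values. Of 12 tested markers of basal and myoepithelial cells, 10 had negative values and 2 positive ones, with a median of -0.85 (8 lower and 2 higher at an unadjusted p of 0.05), and 1, the keratin gene Krt14, passed as lower (-1.97, SE 0.27, limma adjusted p = 0.037). Whether other cells of the samples also express some of them was not tested. Under median-of-ratios scaling and quantile normalization 0 of the 12 passed. Krt5 (-2.70, adjusted p = 0.099), Ngfr (-2.54, adjusted p = 0.098) and Col17a1 (-1.27, adjusted p = 0.093) missed the threshold. In the other direction, Sox10, a transcription factor of salivary acinar and myoepithelial cells, measured 88.3, 92.0 and 32.2 TPM in knockout libraries 1, 2 and 3, against 30.7, 27.0 and 26.4 TPM in wild-type libraries 1, 2 and 3 (1.17, limma adjusted p = 0.23). Itgb4, the integrin of hemidesmosomes, averaged 16.7 ± 8.17 TPM in knockout cells and 6.92 ± 0.574 TPM in wild-type cells (SD, n = 3 each, 1.03, limma adjusted p = 0.28). Neither overlapped between the groups, but knockout library 3 lay close to wild type for both. For 9 of the 12 tested markers every knockout library lay below every wild-type library, and for these 2 above. Of all genes tested, 15.6% lay below in this way and 5.42% above. At an unadjusted p of 0.05 in limma's test, 10.5% of all genes tested were lower and 4.99% higher. Summed over all 13 listed genes the markers came to 172, 157 and 136 TPM in knockout libraries 1, 2 and 3, and to 248, 252 and 230 TPM in wild-type libraries 1, 2 and 3. Each sum nets falls against rises. Ngfr had the largest fall in TPM, and without it the sums would overlap. That overlap rests on the higher Sox10 and Itgb4, which offset falls of other listed genes. Krt14 averaged 9.19 ± 2.83 TPM in knockout cells and 38.0 ± 4.39 TPM in wild-type cells. Krt5 averaged 3.45 ± 2.82 TPM in knockout cells and 22.4 ± 5.15 TPM in wild-type cells (SD, n = 3 each). Ngfr gave 10.3, 6.13 and 39.6 TPM in knockout libraries 1, 2 and 3, and 80.5, 99.3 and 78.3 TPM in wild-type libraries 1, 2 and 3. Markers of pericytes and vascular smooth muscle were low in both groups. Summed over 15 genes they came to 24.5, 25.5 and 19.9 TPM in knockout cells and to 31.4, 31.1 and 40.4 TPM in wild-type cells, with Rergl at 0 in all libraries. These sums did not overlap, but the difference lay mostly in 1 gene, Mcam, and without it they would overlap. Mcam gave 1.62, 2.07 and 4.82 TPM in knockout libraries 1, 2 and 3, and 7.45, 11.3 and 13.8 TPM in wild-type libraries 1, 2 and 3. Of the 7 tested, 4 had negative values and 3 positive ones (median -0.15), and 0 passed limma's test (2 lower at an unadjusted p of 0.05). Of those 2, Ndufa4l2 reached 1 TPM only in wild type, averaging 0.401 ± 0.217 TPM in knockout cells and 1.87 ± 0.641 TPM in wild-type cells (SD, n = 3 each), and is no support for a difference. Mcam (-1.68, adjusted p = 0.092) and Rgs5 (-0.60, adjusted p = 0.32) were negative and Notch3 (0.40, adjusted p = 0.52) positive. The part of either cell type in the contractile values was not tested.

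Markers of further cell types were read in the same way. All 8 fibroblast markers had negative values (median -1.85), and Col3a1 passed as lower (-3.05, SE 0.43, limma adjusted p = 0.044), beside Lum (-2.32, adjusted p = 0.11), Col1a1 (-2.09, adjusted p = 0.073) and Col1a2 (-2.02, adjusted p = 0.12). The list was not uniform, since the groups overlapped for Dcn (-0.47, adjusted p = 0.42), Dpt (-0.16, adjusted p = 0.86) and Pdgfra (-0.03, adjusted p = 0.97). At an unadjusted p of 0.05 in limma's test 5 of the 8 were lower, where 10.5% of all genes tested were. Their sum was 152 to 321 TPM in knockout cells and 376 to 428 TPM in wild-type cells. Of 8 tested endothelial markers 5 were negative (median -0.34), and 0 passed (3 lower at an unadjusted p of 0.05 in limma's test, of which Tek reached 1 TPM only in wild type). Egfl7 was at -0.80 (adjusted p = 0.18), Emcn at -0.78 (adjusted p = 0.15) and Kdr at -0.51 (adjusted p = 0.35), while Pecam1 (0.21, adjusted p = 0.69), Vwf (0.21, adjusted p = 0.71) and Cdh5 (0.16, adjusted p = 0.78) were positive. Their sum was 21.5 to 30.2 TPM in knockout cells and 33.2 to 34.7 TPM in wild-type cells. Of 8 epithelial markers 5 were negative (median -0.09) and 0 passed (2 lower at an unadjusted p of 0.05 in limma's test), with Krt19 at -1.61 (adjusted p = 0.085), Krt7 at -0.96 (adjusted p = 0.099), Krt18 at 0.73 (adjusted p = 0.45) and Epcam at -0.34 (adjusted p = 0.46). The sum of the epithelial markers was 979 to 1988 TPM in knockout cells and 1246 to 1486 TPM in wild-type cells. Skeletal muscle markers were highest in library 3 of both groups. Their sum over 20 genes was 4.41, 4.34 and 23.7 TPM in knockout libraries 1, 2 and 3 and 4.27, 6.99 and 19.2 TPM in wild-type libraries 1, 2 and 3, with Myh7 at 0 in all. Of these, Acta1 (-0.68, adjusted p = 0.48), Ckm (0.48, adjusted p = 0.47) and Mylpf (0.11, adjusted p = 0.90) were tested, and 0 passed limma's test (0 at an unadjusted p of 0.05). The part of these cell types in the contractile values was not tested. With knockout library 3 and wild-type library 3 both left out, the median log2 fold change of the contractile genes was -0.94.

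The genes nearest to Acta2 in size and pattern of change were found by the root mean square difference, over the 6 libraries, of log2(TPM + 1) minus the wild-type mean. A gene that fell further than Acta2, such as Cnn1 or Actg2, ranks low by this measure even where its direction is the same. Among 11267 other genes tested the nearest were Ppic, a cyclophilin gene (0.0708), Lhfpl1 (0.140) and Fst, which encodes follistatin, the activin-binding protein that the study names (0.157). Of the members, Myl9 ranked 21 (0.230), Myh11 52 (0.273) and Mylk 60 (0.284). Tagln ranked 715 (0.491), Cnn1 1566 (0.596), Cald1 2380, Lmod1 2964, Des 3033 and Actg2 6033 (0.919). Myl9, Myh11 and Mylk thus lay near Acta2 by this measure, and knockout library 1 was nearest to wild type for each of these genes and for Acta2. The order of the libraries was not the same in all. Of the knockout libraries, library 2 was lowest for Acta2, and library 3 for Myl9, Myh11 and Mylk. Of the wild-type libraries, library 1 was highest for Acta2 and lowest for Myh11. For Cnn1 and Tagln knockout library 1 lay below library 3, for Actg2 slightly above it, and library 2 was the lowest of the knockout libraries for all 3 genes.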

How the data were processed

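RNA was measured in submandibular gland epithelial cells of 3 p63 knockout and 3 wild-type samples. The deposited values are TPM, which per the labels the authors computed with a correction for the length of each gene and the size of each library. The submitters' processing notes name the mm9 build, DESeq2 1.20.0, featureCounts 1.5.1, TopHat2 2.1.1 and Bowtie2 2.2.6. Annotation, strand setting and read depth are not given in the sources used here. TPM keeps no depth, so no counting error is given.

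Groups came from the genotype label. The labels do not say that samples are separate animals, so a p-value here reflects only the spread among the 6 samples, which may be technical. Values were transformed to log2(TPM + 1), and limma 3.58.1 in R 4.3.3 (mean-variance trend, two-sided, no covariate) tested 11268 of 23366 genes, those that reached 1 TPM in 3 or more libraries. An adjusted p given for a gene is from limma, by Benjamini-Hochberg over all 11268, with a threshold of 0.05. Each SE belongs to a log2 fold change. Simulated libraries of knockout and wild type held 11268 genes. In them, 74 of 100 genes changed 4-fold, 93 of 100 changed 8-fold and 5 of 11068 unchanged genes were called. Each gene was drawn independently, and changes were placed only in genes above a minimum level. These rates therefore do not cover low genes such as Des, nor a shift shared by many genes such as that of knockout library 3.

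The members and the 11 other lists were chosen with earlier results of these data known, and none was tested as a set. Named genes were the members, Trp63, all tested genes of the serum response factor list, the 3 genes nearest to Acta2, and of each other list those that passed and up to 4 with the largest change. One gene that this rule names is not reported here. Other genes (such as Cnn3, Myh9, Sox10, Itgb4, Dcn, Dpt, Pdgfra, Pecam1, Tpm3 and Oxtr) were named after their values were seen. They were relatives of a member, had a sign that turned or ran against their list, changed little where their list changed more, or had a level near 0. Promoters came from RefSeq (GRCm38.p6) and transcripts from GENCODE M21. Because mm9 was not used there, no gene coordinates are given beyond those windows. Alternatives were other pseudocounts, filters, scalings and variance models, a block for neighbouring index numbers, leaving out each library, and, added after seeing the data, leaving out knockout library 3 with wild-type library 3. Family shares were also added then. Figures used matplotlib 3.10.9 in Python 3.11.15.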

Additional observations from a re-analysis of the deposited data

How the results depend on the processing

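Of the contractile genes, 1 passed as lower in the knockout. It was 0 with no filter, 0 under median-of-ratios scaling, 0 with the replicate block, 2 when rescaled without the 50 most abundant genes (Myl9 and Cnn1), 7 with array weights, and 5 with knockout library 3 and wild-type library 3 both left out. In the last 3 of these settings 84, 1345 and 906 of all 11268 genes tested passed as lower. Leaving out 1 library at a time gave 0 to 5, the 5 without knockout library 3. Under quantile normalization it was 1, but Myl9 in place of Cnn1. No member passed as higher in any of the 17 alternatives by limma, with 0 at an unadjusted p of 0.05 as well. The 44 genes passing overall became 25 with a pseudocount of 0.1 TPM, 11 with no filter, 29 with the 5 TPM filter, 73 under median-of-ratios scaling, 72 under quantile normalization, 101 when rescaled without the 50 most abundant genes, 4822 with array weights, 3845 with both libraries numbered 3 left out, and 0 to 5127 when 1 library was left out. Without wild-type libraries 1, 2 and 3 in turn it was 1, 0 and 0 (879, 1024 and 1020 at an unadjusted p of 0.05). The share of lower genes among those called was 81.8%, and 27.9% with array weights and 25.7% without knockout library 3. Des reversed to 0.030 under quantile normalization, and Lmod1 ranged from -0.23 to 0.095 when 1 library was left out, positive without knockout library 2. The cause was not tested. The family shares kept their direction under quantile normalization and without each library.

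The labels give no replicate numbers shared between the groups. The block paired libraries with neighbouring index numbers (15 with 14, 20 with 19, 30 with 29), and it left 31 genes passing and 0 members (Cnn1 adjusted p = 0.054). Deviations from the group means correlated across 11268 genes at 0.167, 0.232 and 0.0769 in these pairs and at -0.214 to 0.0320 in the others, and each knockout library correlated best with its neighbour. The leading numbers of the titles are also nearest within the same pairs, at 41 with 44, 6594 with 6593 and 76 with 78. No label says what either number marks, and 1 of the 3 correlations was below 0.1, so the pairing was not adopted. Depth is unknown, so values near 1 TPM such as those of Des have no stated counting limit.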
